A study of Mus musculus with 5 samples.

Results

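Solute carriers are membrane proteins of the Slc gene families that move sugars, amino acids, nucleosides, metals, inorganic ions and vitamins across cell membranes. The genes described here are the protein-coding genes whose symbol starts with Slc followed by a digit and whose counts, summed over 5 libraries of sorted mouse microglia, reached at least 100. Of 371 protein-coding Slc genes in the table, 71 had no count and 108 had between 1 and 99. Of the 192 that reached 100 counts, Slc2a5, Slc40a1, Slc11a1 and Slc11a2 were set aside by the same rule. This left 188 genes, of 41388 genes in the table. The genes were chosen by their measured counts summed over both groups, so the counts themselves are a description and not a finding. Of the 188 genes, 168 reached 100 counts in the controls alone and 183 in the A20 deletion libraries alone. A further 16 genes reached 100 counts in the A20 deletion libraries alone but not in the controls alone, and 4 reached it only over both groups together. Among the 16 were Slc13a4 and Slc29a4, with fewer than 20 counts in both controls together, and Slc2a6 and Slc6a9, with 53 and 26. The genes just inside the rule were Slc7a4 with 100 counts, Slc13a4 with 120, Slc29a4 with 135 and Slc18a2 with 136. Those just outside were Slc7a10 with 99, Slc22a21 with 91, Slc5a5 with 85 and Slc25a43 with 77.

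The study compared microglia, the resident macrophages of the brain, between genotypes of A20 (Tnfaip3), an enzyme that edits ubiquitin chains and holds back NF-kB signalling. All mice were C57Bl/6 animals of 4 weeks that had received 2 mg tamoxifen on postnatal days 14 and 16, and eYFP-positive cells (carrying a yellow fluorescent reporter) were sorted after papain digestion. The control group of 2 libraries carried the genotype eYFP-A20fl/wt Cx3cr1-CreERT2/+, that is 1 floxed and 1 wild-type A20 allele with a tamoxifen-inducible Cre recombinase driven from the Cx3cr1 locus, which is active in microglia and other macrophages. The labels call these cells partially deficient, so the controls had received the same drug and carried a deletable allele themselves. The A20 deletion group of 3 libraries carried the genotype given as eYFP-A20Dmg and is described as fully deficient. Its label does not name the Cre allele. Whether the libraries within a group derive from different mice is not stated. The p-values therefore reflect only the spread among these samples. Xist, from which sex was read, had 780 and 0 counts in control replicates 1 and 2. In A20 deletion replicates 1, 2 and 3 Xist had 616, 0 and 0 counts. The controls thus differed in sex and were not repeats of 1 animal. The same holds for A20 deletion replicate 1 against replicates 2 and 3. The spread between A20 deletion replicates 2 and 3 may be technical, which was not tested.

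Microglia take up glucose through Slc2 proteins and large neutral amino acids through heterodimers of Slc3a2 with Slc7 light chains. Inside the cell, Slc25 carriers exchange metabolites across the inner mitochondrial membrane, Slc35 proteins load nucleotide sugars into the Golgi apparatus and endoplasmic reticulum, and several Slc proteins return amino acids, peptides and nucleosides from lysosomes to the cytosol. Zinc enters the cytosol through the Slc39 (ZIP) family and leaves it through the Slc30 (ZnT) family. The symbols Slc9a3r1, Slc9a3r2, Slc7a6os and Slc4a1ap share the prefix but do not name transporters.

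Total counts were 13946211 and 15275199 for the controls and 11902432, 12883827 and 9726334 for the A20 deletion replicates. Tnfaip3 counts over all exons did not separate the groups and do not check the deletion, since the removed exons are not named (454 and 94.75 CPM, that is counts scaled to a common library total, in the controls, against 295, 277 and 348 CPM). A20 deletion replicates 2 and 3 stood apart from replicate 1. Transcripts encoded by mitochondrial DNA made up 4.63% and 3.56% of counts in replicates 2 and 3, against 0.847% in replicate 1 and 1.19% and 0.852% in the controls. Genes longer than the median tested gene held 37.85% and 38.54% of tested counts in replicates 2 and 3, 44.92% in replicate 1, and 47.97% and 46.85% in the controls. Control replicate 1 and A20 deletion replicate 1 held 780 and 616 counts of Xist and the other libraries 0. All 6 microglial markers were lower in each A20 deletion library than in both controls, as were 18.5% of all tested genes. None of the 6 passed the test (summed level 43410 and 48560 CPM in the controls and 36060, 35150 and 32460 CPM in the A20 deletion libraries). In bulk RNA, fewer cells of a type and less RNA per cell cannot be told apart.

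The largest contributors among the 188 genes, compared as CPM per kilobase of exon, were partners in amino acid transport and a lysosomal nucleoside transporter. The Slc genes set aside by the rule are not in this ranking. Slc7a8, which encodes the light chain LAT2 of a neutral amino acid exchanger, stood at 170 and 181 CPM per kilobase in the controls. Slc3a2, its heavy chain partner, stood at 158 and 192 CPM per kilobase. Slc29a3, the nucleoside transporter ENT3 of lysosomes, stood at 158 and 173 CPM per kilobase. The ranges of these 3 genes overlapped between the control libraries, so their order is not resolved. The adenine nucleotide carrier Slc25a5 of the inner mitochondrial membrane came next at 106 and 122 CPM per kilobase. The 6 that followed lay between 55.9 and 70 CPM per kilobase on average and were Slc35b2, Slc25a11, Slc12a9, Slc46a3, Slc46a1 and Slc7a7. Of the 188 genes, 70 had a mean above 10 CPM per kilobase in the controls.

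The 188 genes together held 13160 and 14560 CPM in the controls and 13010, 11800 and 12230 CPM in the A20 deletion libraries. All 188 were tested. With edgeR's quasi-likelihood test and Benjamini-Hochberg adjustment over all 12240 tested genes at a threshold of 0.05, 3 rose and 2 fell, 2.66% of the 188 genes. Over all tested genes 2.59% were called, so the share among the 188 genes was near the background. The 4 Slc genes set aside by the rule are not in these counts. Of the 3 rises, Slc2a6 and Slc6a9 were among the 16 genes included through the A20 deletion libraries, so these counts are a description of the set and support nothing. Among the 168 genes that reached the limit in the controls alone, 1 rose and 2 fell. By direction, 1.6% of the Slc genes were called higher against 2.08% of all tested genes, and 1.06% lower against 0.507%. At an unadjusted p under 0.05 the counts were 14 higher (7.45%, against 12.8% of all tested genes) and 31 lower (16.5%, against 8.26%), out of 21% of all tested genes in either direction. Among the 10806 tested genes with at least 100 counts, 2.88% were called (2.3% higher and 0.574% lower), and at an unadjusted p under 0.05 the shares were 12.4% higher and 9.31% lower, 21.7% in all.

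The levels of 82 Slc genes did not overlap between the groups (43.6%, against 40.2% of all tested genes). In 27 of these the A20 deletion libraries lay above both controls (14.4%, against 21.8%), and in 55 below (29.3%, against 18.5%). Of the tested genes with at least 100 counts, 41.2% did not overlap, 20.8% above and 20.4% below. The median log2 fold change of the Slc genes was -0.08, against 0.05 for all tested genes, and 104 of the 188 were negative (55.3%, against 46.45%). The values also differed by exon length. The 107 Slc genes longer than the median tested gene had a median log2 fold change of -0.22, with 13 above and 38 below both controls. The 81 shorter genes had a median of 0.05, with 14 above and 17 below. The same split was not made over all tested genes, so it cannot be read as a trait of Slc genes. Relative to the mean of the controls, the median of the longer genes was -0.18, -0.24 and -0.33 (log2) in A20 deletion replicates 1, 2 and 3, and that of the shorter genes -0.12, 0.07 and 0.10. With a length trend removed from each library, the median of the 188 genes was -0.10 against 0.01 for all tested genes, a difference of -0.11 where it had been -0.13. The counts at an unadjusted p under 0.05 were then 16 higher and 33 lower.

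**Figure D1:**
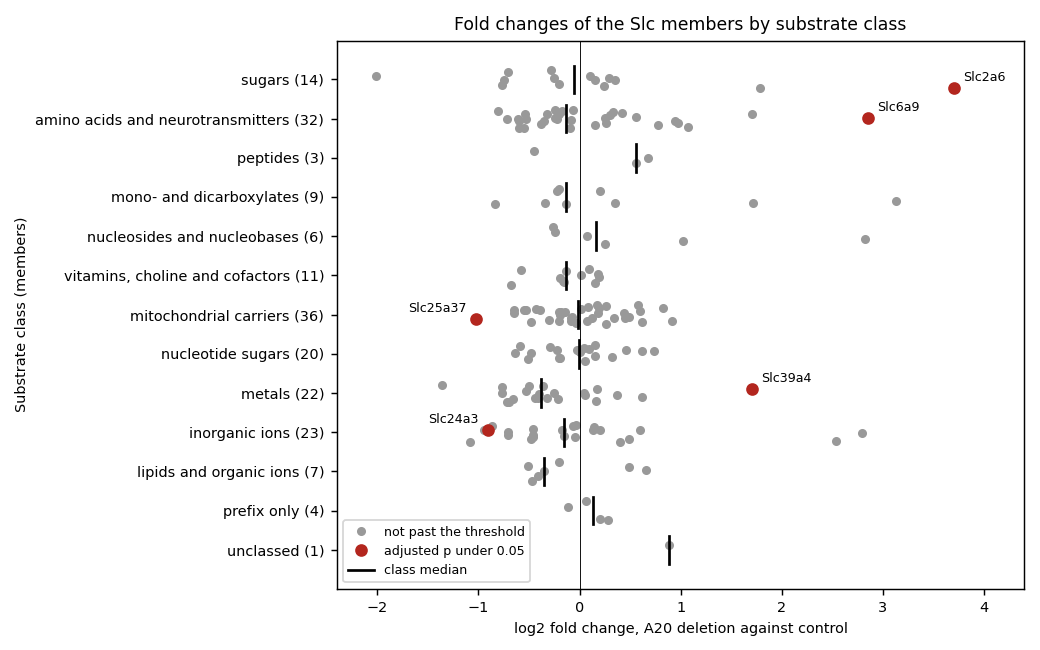
Log2 fold change of each of the 188 Slc genes (points, A20 deletion against control) by substrate class, with the number of genes of the class in brackets and a vertical line at its median. Red points are the 5 genes past the threshold, Slc2a6, Slc6a9 and Slc39a4 on the higher side and Slc25a37 and Slc24a3 on the lower.

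The largest rise of any Slc gene was in Slc2a6, which encodes the hexose transporter GLUT6, a protein of lysosomal membranes known from activated macrophages. The gene lies at GRCm38 chr2:27021363-27027998 on the minus strand. Its RefSeq upstream sequence (GRCm38.p6, the 250 bases ending at the RefSeq start, chr2:27027999-27028248, minus strand, 5′ to 3′) is shown because Slc2a6 had the largest fold change. It held no match to the 3 motifs searched on both strands, which were the NF-kB (kappa-B) consensus, the interferon-stimulated response element (GAAA, any 2 bases, GAAA) and TTCNNNGAA for STAT sites.
Slc2a6: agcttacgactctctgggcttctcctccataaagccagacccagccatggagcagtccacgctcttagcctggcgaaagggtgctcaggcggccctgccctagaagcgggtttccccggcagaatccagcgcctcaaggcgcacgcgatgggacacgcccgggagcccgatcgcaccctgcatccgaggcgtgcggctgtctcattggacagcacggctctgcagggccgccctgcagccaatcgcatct

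Slc2a6 stood at 1.778 and 1.796 CPM in the controls, against 28.9, 15.1 and 26.4 CPM in A20 deletion replicates 1, 2 and 3. The groups were far apart, with replicate 2 the lowest of the A20 deletion libraries. The mean went from 1.79 ± 0.0126 CPM (SD, n = 2) to 23.5 ± 7.37 CPM (SD, n = 3), a 13.1-fold rise (log2 fold change 3.71, SE 0.37, edgeR adjusted p = 0.00683). By CPM per kilobase in the controls Slc2a6 ranked 170 of the 188 genes. Without control replicate 1 the log2 fold change was 3.66 (edgeR adjusted p = 0.0984), and without control replicate 2 it was also 3.66 (edgeR adjusted p = 0.137). With 1 control left, that library is assumed to vary like the A20 deletion libraries. Few genes of the whole table were then called, 18 without control replicate 1 and 0 without control replicate 2 (edgeR, with 1367 and 1323 at an unadjusted p under 0.05). The same holds for the values without a control given below.

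Slc39a4 encodes the zinc importer ZIP4, best known from intestinal zinc uptake, and lies at chr15:76612383-76617384 on the minus strand. Its level was 12.6 and 12.3 CPM in the controls and 36.04, 42.06 and 43.8 CPM in the A20 deletion libraries. All 3 A20 deletion libraries lay close together and far above both controls. The rise was 3.27-fold, from 12.4 ± 0.239 CPM (SD, n = 2) to 40.6 ± 4.07 CPM (SD, n = 3), with a log2 fold change of 1.71 (SE 0.19, edgeR adjusted p = 0.00792). It was not past the threshold without control replicate 1 (log2 1.68, edgeR adjusted p = 0.114) or without control replicate 2 (log2 1.64, edgeR adjusted p = 0.174).

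Slc6a9 encodes GlyT1, a sodium-coupled glycine transporter known from glia, and lies at chr4:117834506-117875198 on the plus strand. It stood at 0.498 and 1.219 CPM in the controls, against 7.36, 4.48 and 7.13 CPM after A20 deletion. The groups did not overlap, although the control values rested on 7 and 19 counts. The mean rose 7.24-fold, from 0.858 ± 0.51 CPM (SD, n = 2) to 6.33 ± 1.6 CPM (SD, n = 3), with a log2 fold change of 2.86 (SE 0.53, edgeR adjusted p = 0.0446). The call was lost without control replicate 1 (2.32, edgeR adjusted p = 0.259), control replicate 2 (3.59, 0.201), A20 deletion replicate 2 (3.07, 0.0653) or A20 deletion replicate 3 (2.77, 0.127), each given as log2 fold change and adjusted p. The strand setting of the counting is not given in the sources used here, and Gm17114, Ccdc24 and B4galt2 overlap Slc6a9 on the other strand. Of these, B4galt2 had the highest level, 0.925 and 0.513 CPM in the controls and 0.52, 1.18 and 0.611 CPM in the A20 deletion libraries, which in control replicate 1 was above Slc6a9. The part of these overlapping genes in the Slc6a9 counts was not tested.

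Some markers of other cells were higher beside these 3 rises. Of the monocyte markers reported here only Plac8 passed the test, at 2.99 and 2.63 CPM in the controls, against 30.7, 16.7 and 27.1 CPM. Ccr2, the chemokine receptor of inflammatory monocytes, lay below both controls, at 11.5 and 8.21 CPM against 8.14, 5.19 and 5.5 CPM. Ly6c2 was at or near 0 in the controls and at most 1.222 CPM after A20 deletion. S100a4 stood at 0.854 and 0.898 CPM in the controls, against 3.032, 1.651 and 5.704 CPM. The 5 markers of T and NK cells summed to 0.0711 and 0 CPM in the controls and to 2.95, 1.73 and 0.917 CPM after A20 deletion. The 5 oligodendrocyte markers summed to 73.3 and 101 CPM in the controls and to 104, 212 and 203 CPM, above both controls in each A20 deletion library. The 5 endothelial markers summed to 52.4 and 60.4 CPM against 60.3, 46.3 and 51.6 CPM. Pecam1 gave most of the control sums and lay below both controls, at 50.58 and 53.11 CPM against 26.25, 35.22 and 28.01 CPM. Cldn5, Slco1a4 and Flt1 lay above both controls. Cldn5 stood at 0.1423 and 1.924 CPM against 19.75, 2.673 and 7.436 CPM. Flt1 stood at 0.7113 and 1.989 CPM against 9.27, 3.144 and 3.769 CPM. Slco1c1 overlapped, at 0.2845 and 2.63 CPM against 0.6931, 3.144 and 9.371 CPM. None of the 5 passed the test. Neutrophil markers summed to 17 and 0.193 CPM against 8.75, 0.55 and 1.43 CPM, with no separation of the groups. Of 4 dendritic cell markers, Flt3, Zbtb46 and Xcr1 lay above both controls without passing the test, and Siglech overlapped. The sums for border macrophages were 52.2 and 113 CPM against 85.4, 69.8 and 80.2 CPM. Neuron markers summed to 4.91 and 1.28 CPM against 5.72, 8.02 and 6.21 CPM. B cell markers summed to 39.05 and 39 CPM against 37.6, 49.6 and 50.6 CPM. Astrocyte markers that are not Slc genes (Aqp4, Gfap and Aldoc) summed to 34.4 and 41.1 CPM against 29.7, 110 and 105 CPM. The part of RNA from other cells in the 3 rises was not tested.

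The larger of the 2 falls was in Slc25a37, which encodes mitoferrin-1, the carrier that brings iron into mitochondria. The gene lies at chr14:69241848-69285112 on the minus strand. It stood at 40.2 and 39.1 CPM in the controls, against 18.9, 22.9 and 16.5 CPM after A20 deletion. Every A20 deletion library lay well below both controls. The level fell 2.04-fold, from 39.6 ± 0.796 CPM (SD, n = 2) to 19.4 ± 3.22 CPM (SD, n = 3), with a log2 fold change of -1.03 (SE 0.19, edgeR adjusted p = 0.0455). The adjusted p by edgeR was 0.272 without control replicate 1 (log2 -1.05), 0.322 without control replicate 2 (log2 -1.10), 0.0643 without A20 deletion replicate 2 (log2 -1.15) and 0.173 without A20 deletion replicate 3 (log2 -0.91). Its relative Slc25a28, which encodes mitoferrin-2, stood at 21.2 and 17.45 CPM in the controls, against 21.7, 22.9 and 21.7 CPM in the A20 deletion libraries, with a log2 fold change of 0.20 (edgeR adjusted p = 0.548). Erythroid markers, given because erythroid precursors also express Slc25a37, summed to 0.0711 and 20.9 CPM in the controls and 7.28, 16.3 and 0.102 CPM in the A20 deletion libraries. Their part in the Slc25a37 value was not tested.

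Slc24a3 encodes NCKX3, a potassium-dependent sodium and calcium exchanger, and lies at chr2:145167754-145642166 on the plus strand. It stood at 64.2 and 73.8 CPM in the controls, against 32.6, 36.2 and 41.5 CPM after A20 deletion, with a wide gap between the groups. The level fell 1.88-fold, from 69.0 ± 6.79 CPM (SD, n = 2) to 36.8 ± 4.46 CPM (SD, n = 3), with a log2 fold change of -0.91 (SE 0.18, edgeR adjusted p = 0.0488). The adjusted p by edgeR was 0.206 without control replicate 1 (log2 -1.05), 0.377 without control replicate 2 (log2 -0.86), 0.154 without A20 deletion replicate 2 (log2 -0.88) and 0.115 without A20 deletion replicate 3 (log2 -0.99). RefSeq gives Slc24a3 starts at its 5′ end and inside the gene. The window before the start inside the gene (GRCm38.p6 chr2:145242361-145242610, plus strand, 5′ to 3′) is shown because, of the windows found for Slc2a6, Slc6a9 and Slc24a3, it alone held a match. Slc39a4 and Slc25a37 were not searched. Capitals mark the match to the kappa-B consensus.
Slc24a3: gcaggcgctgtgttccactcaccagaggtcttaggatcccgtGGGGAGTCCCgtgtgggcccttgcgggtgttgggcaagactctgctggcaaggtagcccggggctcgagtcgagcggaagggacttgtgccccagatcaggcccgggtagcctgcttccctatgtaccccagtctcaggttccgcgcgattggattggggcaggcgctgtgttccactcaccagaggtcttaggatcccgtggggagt

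Promoter windows were used for 144 of the 188 genes, 194 windows in all. Windows on chromosome 18, where Slc12a2 lies, were left out of these and of the windows of all genes. The kappa-B consensus occurred in 5.67% of them and in 3.9% of all 32851 windows of the same length. The interferon motif occurred in 2.06% against 2.98%, and the STAT motif in 4.64% against 7.02%. A match is a description of the letters in a window and says nothing of binding.

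**Figure D2:**
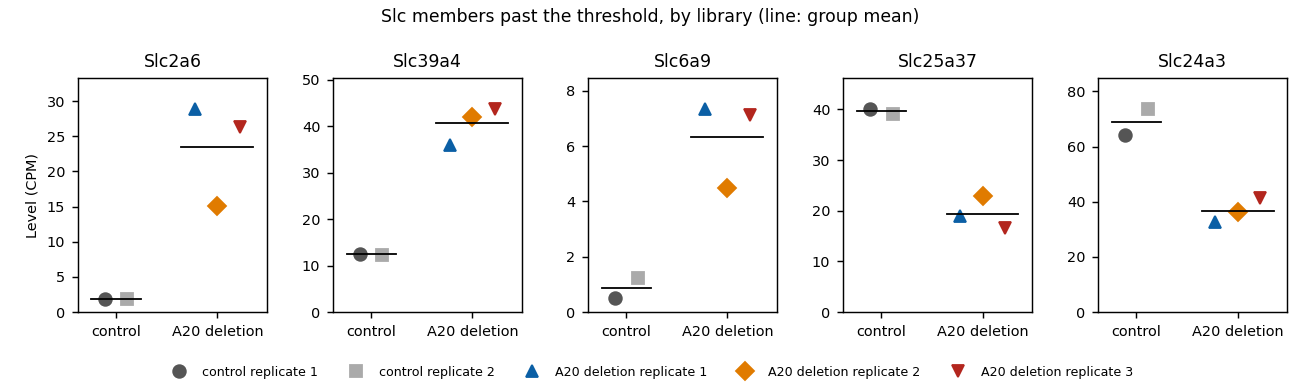
Level in CPM of the 5 Slc genes past the threshold in each of the 5 libraries (points), with a line at the group mean and a separate axis from 0 for each gene. The A20 deletion libraries lie above both controls for Slc2a6, Slc39a4 and Slc6a9 and below both for Slc25a37 and Slc24a3.

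Among the zinc, copper and magnesium transporters, 1 of 22 rose (Slc39a4), none fell, and the class had a median log2 fold change of -0.38. The ZIP family accounted for most of the negative values. Of its 12 genes, 10 lay below both controls in all 3 A20 deletion libraries (18.5% of all tested genes did), Slc39a4 lay above, and Slc39a11 overlapped. The median of the 12 was -0.47. None of the 10 passed the test, and apart from Slc39a1 and Slc39a14 they are named here after their values were seen. Slc39a10, a plasma membrane importer, stood at 113 and 112.5 CPM in the controls, against 70.1, 33.5 and 28.5 CPM in the A20 deletion libraries, a log2 difference of -1.36 (SE 0.37, edgeR adjusted p = 0.117). Its levels in A20 deletion replicates 2 and 3 were well under that in replicate 1. Slc39a3 stood at 61.2 and 64 CPM against 45.5, 35.8 and 37.6 CPM (log2 -0.66, edgeR adjusted p = 0.111). Slc39a9, a Golgi member, stood at 111 and 129 CPM against 93.7, 66.4 and 58.9 CPM (log2 -0.72, edgeR adjusted p = 0.157). Slc39a14 (ZIP14), which carries zinc and iron and is known from inflamed liver, stood at 30.9 and 32.2 CPM against 25.5, 19.4 and 10.8 CPM (log2 -0.76, edgeR adjusted p = 0.243). The most abundant ZIP gene per kilobase in the controls, Slc39a1, stood at 121 and 139 CPM against 114, 112 and 102 CPM (log2 -0.25, edgeR adjusted p = 0.382). In 8 of these 10 genes A20 deletion replicate 1 lay nearest to the controls. Replicates 2 and 3 differed from replicate 1 in their share of counts in long genes, their mitochondrial share and their lack of Xist counts. The median exon length of the 12 ZIP genes was 4044 bases, against 4427 for all tested genes. With a length trend removed, the ZIP median was -0.48 and 11 of the 12 were negative. Without A20 deletion replicates 2 and 3 the ZIP median was -0.33. The cause of the lower ZIP values was not tested.

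The Slc30 family of zinc exporters had 4 negative values among 6 genes and a median log2 fold change of -0.27, and none of the 6 passed the test. Slc30a4, named after its values were seen, lay below both controls, at 41.8 and 46.4 CPM against 35.8, 22.6 and 23.1 CPM (log2 -0.70, edgeR adjusted p = 0.178). Slc30a5, Slc30a6 and Slc30a7 overlapped between the groups (log2 -0.33, -0.21 and -0.41), as did Slc30a9 (log2 0.05). Slc30a1 (ZnT1), which exports zinc at the plasma membrane, stood at 24.5 and 26.4 CPM in the controls, against 28.9, 32.1 and 37.9 CPM in the A20 deletion libraries (log2 0.37, edgeR adjusted p = 0.298). Slc31a1 (CTR1), the copper importer, stood at 73.7 and 78.9 CPM against 93.7, 71.8 and 90 CPM (log2 0.16, edgeR adjusted p = 0.614). Its relative Slc31a2 (CTR2) stood at 40.6 and 52.6 CPM against 69.7, 65.1 and 80.2 CPM (log2 0.62, SE 0.19, edgeR adjusted p = 0.152). Slc31a2 thus lay above both controls in every A20 deletion library without passing the test.

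**Figure D3:**
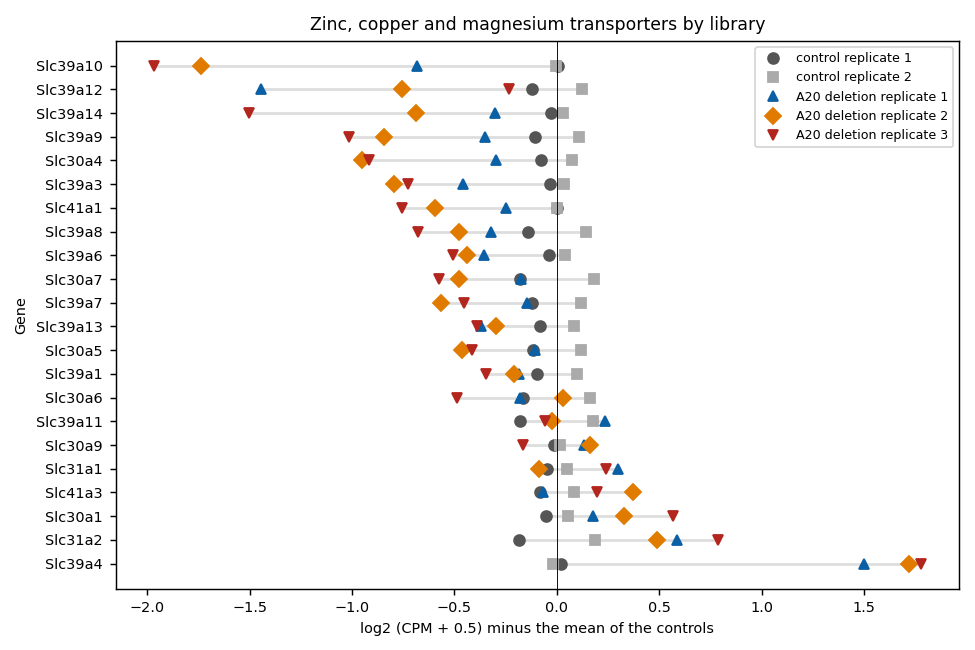
Level of each of the 22 zinc, copper and magnesium transporter genes in each library, as log2(CPM + 0.5) minus the mean of the 2 controls. The A20 deletion points of 10 of the 12 Slc39 genes lie left of both controls and those of Slc39a4 lie right of them.

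Beside Slc2a6, none of the other 13 sugar transporter genes passed the test. Slc2a1 (GLUT1), the widespread glucose transporter, stood at 98.2 and 124 CPM in the controls, against 160, 98.9 and 110 CPM in the A20 deletion libraries (log2 0.15, edgeR adjusted p = 0.734). Its highest level was in A20 deletion replicate 1, and the other libraries overlapped. Slc2a3 (GLUT3), the high-affinity glucose transporter of neurons, stood at 5.97 and 8.15 CPM against 3.64, 5.11 and 4.18 CPM (log2 -0.71, edgeR adjusted p = 0.252). Slc37a2, a sugar phosphate transporter of macrophages, stood at 196 and 208 CPM against 195, 156 and 158 CPM (log2 -0.25, edgeR adjusted p = 0.405). The lowest fold change of the class belonged to Slc5a10 (log2 -2.01, edgeR adjusted p = 0.186), named after its values were seen, at 5.9 and 5.32 CPM against 0.26, 1.97 and 1.94 CPM.

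Of 32 amino acid and neurotransmitter transporters, Slc6a9 rose and none fell. The class had a median log2 fold change of -0.13, with 5 genes above both controls (15.6%, against 21.8% of all tested genes) and 7 below (21.9%, against 18.5%). Slc7a8, the most abundant gene of the class per kilobase, was lower in every A20 deletion library, at 850 and 907 CPM in the controls and 616, 526 and 464 CPM (log2 -0.71, SE 0.17, edgeR adjusted p = 0.0853). Its heavy chain Slc3a2 stood at 557 and 678 CPM against 504, 570 and 572 CPM (log2 -0.17, edgeR adjusted p = 0.549), and the groups overlapped. Of the other light chains, Slc7a6, named after its values were seen, also lay below both controls, at 32.9 and 27.65 CPM against 21.7, 21.2 and 19.8 CPM (log2 -0.54, edgeR adjusted p = 0.168). Slc7a5 (LAT1), which imports leucine, stood at 137 and 165 CPM against 138, 139 and 150 CPM (log2 -0.08, edgeR adjusted p = 0.774). Slc7a7, which exports arginine, stood at 181 and 190 CPM against 191, 225 and 203 CPM (log2 0.16, edgeR adjusted p = 0.565). Slc7a11 (xCT), which exchanges cystine for glutamate, was low in all libraries, at 4.13 and 5.65 CPM against 1.47, 4.56 and 3.67 CPM (log2 -0.59, edgeR adjusted p = 0.511). Slc38a2 (SNAT2), a sodium-coupled glutamine transporter, stood at 199 and 192 CPM against 151, 129 and 125 CPM (log2 -0.53, edgeR adjusted p = 0.142). The taurine transporter Slc6a6 stood at 249 and 208 CPM against 247, 151 and 180 CPM (log2 -0.25, edgeR adjusted p = 0.549). Slc1a3 (GLAST), a glutamate transporter of astrocytes that microglia also express, stood at 95.7 and 132 CPM against 127, 166 and 165 CPM (log2 0.42, edgeR adjusted p = 0.297), beside the astrocyte marker sums given above. Slc7a2, the inducible arginine importer, was under the rule with 36 counts in all.

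The peptide, nucleoside and nucleobase transporters went in both directions, and none passed the test. Slc15a3, a histidine and peptide transporter of macrophage lysosomes, stood at 269 and 252 CPM in the controls, against 337, 404 and 415 CPM in the A20 deletion libraries (log2 0.56, SE 0.17, edgeR adjusted p = 0.139). Slc15a4, its relative, which takes part in endosomal Toll-like receptor signalling, stood at 172 and 212 CPM against 164, 130 and 128 CPM (log2 -0.45, SE 0.19, edgeR adjusted p = 0.231). Slc15a3 thus lay above and Slc15a4 below both controls in all 3 A20 deletion libraries. Slc29a3 (ENT3) stood at 923 and 1012 CPM against 1057, 628 and 733 CPM (log2 -0.26, edgeR adjusted p = 0.522), with A20 deletion replicate 1 highest and replicates 2 and 3 lowest. Slc43a3, a purine nucleobase transporter, stood at 4.41 and 4.11 CPM against 10.8, 6.21 and 8.96 CPM (log2 1.02, SE 0.32, edgeR adjusted p = 0.156).

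Of 36 mitochondrial carriers, Slc25a37 fell and none rose. In 9 the A20 deletion libraries lay above both controls (25%, against 21.8% of all tested genes) and in 7 below (19.4%, against 18.5%). The median log2 fold change was -0.01, with 18 genes on each side of 0. With upper-quartile scaling it was 0.06, and the median of all tested genes moved from 0.05 to 0.11. Slc25a5, the adenine nucleotide carrier with the highest level per kilobase in the class, stood at 174 and 201 CPM in the controls, against 206, 230 and 237 CPM in the A20 deletion libraries (log2 0.26, edgeR adjusted p = 0.377). The citrate carrier Slc25a1, the dicarboxylate carrier Slc25a10 and the oxoglutarate carrier Slc25a11 had log2 fold changes of 0.17, 0.34 and -0.03 (edgeR adjusted p = 0.564, 0.314 and 0.921). Slc25a45 had a log2 fold change of -0.20 (edgeR adjusted p = 0.467).

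Of 9 carboxylate transporters none passed the test. The lactate transporters Slc16a1 (MCT1) and Slc16a3 (MCT4) had log2 fold changes of -0.35 and -0.23 (edgeR adjusted p = 0.29 and 0.577). Slc16a1 stood at 26.9 and 30.9 CPM against 22.5, 23.4 and 22.3 CPM, and Slc16a3 at 117 and 143 CPM against 143, 94.8 and 96 CPM. Slc16a7 (MCT2) stood at 37.5 and 39.6 CPM against 26.2, 23.9 and 14.5 CPM (log2 -0.84, SE 0.26, edgeR adjusted p = 0.153). Slc16a6, the most abundant of the class per kilobase, had a log2 fold change of -0.20 (edgeR adjusted p = 0.467).

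Of 11 vitamin, choline, heme and cofactor transporters none passed. Slc44a2, a choline transporter-like protein, had the smallest p of the class and was lower in every A20 deletion library, at 420 and 474 CPM in the controls and 289, 297 and 252 CPM (log2 -0.68, SE 0.16, edgeR adjusted p = 0.0814). Slc46a1, which carries folate and heme, stood at 160 and 200 CPM in the controls, 133 CPM in A20 deletion replicate 1 and 219 and 223 CPM in replicates 2 and 3 (log2 0.09, edgeR adjusted p = 0.853). The lysosomal transporter Slc46a3 and the heme exporter Slc48a1 of lysosomes had log2 fold changes of 0.01 and 0.15 (edgeR adjusted p = 0.976 and 0.603). Of 20 Slc35 genes none passed. Their median log2 fold change was -0.00 (0.07 with upper-quartile scaling, which moved the median of all tested genes to 0.11), and Slc35e3 had the smallest p (log2 -0.59, SE 0.19, edgeR adjusted p = 0.156). Slc35b2, which brings the sulfate donor into the Golgi apparatus, had a log2 fold change of 0.00.

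Of 23 transporters of inorganic ions, Slc24a3 fell and none rose, and 2 genes lay above both controls (8.7%, against 21.8% of all tested genes) and 8 below (34.8%, against 18.5%). Slc9a9, an endosomal sodium and proton exchanger, stood at 235 and 297 CPM in the controls, against 191, 160 and 138 CPM in the A20 deletion libraries (log2 -0.71, SE 0.20, edgeR adjusted p = 0.124). Slc12a2 (NKCC1), which imports sodium, potassium and chloride, stood at 454 and 394 CPM against 430, 236 and 248 CPM (log2 -0.48, edgeR adjusted p = 0.351). Slc12a2 in A20 deletion replicate 1 was within the control range and in replicates 2 and 3 below it. Those 2 libraries were also the lowest for the sodium and calcium exchanger Slc8a1, named after its values were seen, at 92.7 and 96.5 CPM against 75, 26.6 and 32.5 CPM (log2 -1.08, edgeR adjusted p = 0.206). Slc12a9 and the phosphate transporter Slc20a1 had log2 fold changes of 0.13 and 0.15 (edgeR adjusted p = 0.647 and 0.706). Among 7 lipid and organic ion transporters none passed. The fatty acid transport proteins Slc27a1 and Slc27a4 had log2 fold changes of 0.65 and -0.51 (SE 0.21 and 0.18, edgeR adjusted p = 0.167 and 0.187) and did not overlap between the groups, in opposite directions.

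Across the whole set, 19 genes had A20 deletion replicates 2 and 3 below both controls with replicate 1 within or above the control range, and 26 had replicates 2 and 3 above both controls with replicate 1 within or below. For 15 genes the A20 deletion libraries differed at least 4-fold among themselves, and none of the 15 passed the test. The counts of 19, 26 and 15 were not made over all tested genes, so they cannot be read as traits of Slc genes. Of the 15, those named next were chosen after their values were seen. Among them, Slc4a5, a bicarbonate transporter of the choroid plexus epithelium, stood at 0.0711 and 1.73 CPM in the controls, against 0.173, 0.314 and 15.7 CPM in the A20 deletion libraries. Slc4a10, a bicarbonate transporter of the same epithelium, stood at 0.142 and 1.99 CPM against 0, 2.59 and 20.3 CPM. Slc13a4, a sulfate transporter, stood at 0.0711 and 0.706 CPM against 0.0866, 1.02 and 9.57 CPM, and Slc29a4, a monoamine transporter, at 0.284 and 0.77 CPM against 0.173, 1.81 and 9.57 CPM. In all 4 the value of the group came from A20 deletion replicate 3. A list of 9 choroid plexus markers was chosen after these values were seen. It summed to 31.5 and 208 CPM in the controls and 21.6, 237 and 2763 CPM in the A20 deletion libraries. The library order of this sum was that of Slc4a10 and Slc29a4, and not that of Slc4a5 or Slc13a4. Of this sum Ttr gave 26.2 and 190 CPM and 18.5, 221 and 2614 CPM. Slc6a11, a GABA transporter of astrocytes, stood at 2.28 and 8.21 CPM against 2.43, 10.8 and 20.3 CPM. Slc4a4, an astrocyte marker itself, stood at 3.41 and 6.41 CPM against 1.99, 10.3 and 10.1 CPM, beside the astrocyte sums of 34.4, 41.1, 29.7, 110 and 105 CPM given above. The part of choroid plexus and astrocyte RNA in these values was not tested. The controls differed at least 2-fold in 12 Slc genes, a count also not made over all tested genes. All 12 were higher in control replicate 2. The cause of this difference between the controls was not tested.

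**Figure D4:**
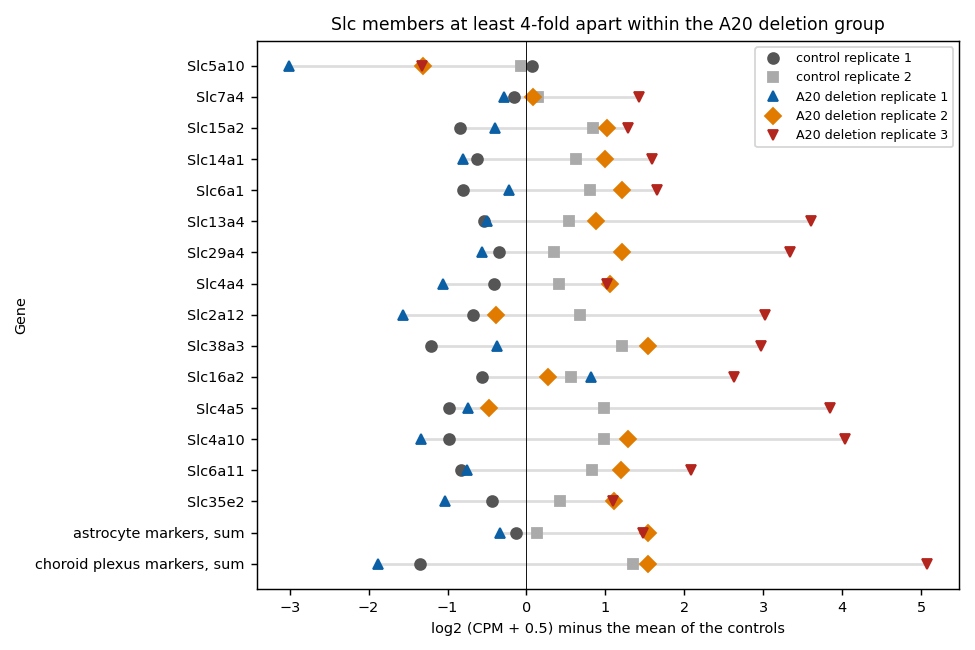
Level of the 15 Slc genes whose A20 deletion libraries differed at least 4-fold, in each library, as log2(CPM + 0.5) minus the mean of the 2 controls, with the summed levels of astrocyte markers (Aqp4, Gfap and Aldoc) and of 9 choroid plexus markers in the last rows. A20 deletion replicate 3 is the highest library for most of these genes and for the choroid plexus sum.

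A list of 42 transporters and transport partners without the Slc prefix was read from the same fit. Of 37 that were tested, none rose and 1 fell, the organic anion transporter Slco2b1 (2.7%, against 2.59% of all tested genes). It stood at 2380 and 2650 CPM in the controls, against 1612, 1429 and 1370 CPM in the A20 deletion libraries (log2 -0.77, SE 0.14, edgeR adjusted p = 0.0446), with no overlap between the groups. The adjusted p by edgeR was 0.177 and 0.348 without control replicate 1 or 2 (log2 -0.89 and -0.75), and 0.139 and 0.205 without A20 deletion replicate 2 or 3 (log2 -0.74 and -0.72). The median log2 fold change of the 37 was -0.24, against 0.05 for all tested genes.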

How the data were processed

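The deposited values are read counts per Ensembl gene, not normalized, in 1 table of 5 libraries. Per the submitters' processing notes, the tools were STAR 2.4.0j, featureCounts (no version) and DESeq2 1.22.1 and the build GRCm38. Not given in the sources used here are the annotation release, the strand setting and how multi-mapping reads were counted. Symbols, lengths and coordinates came from GENCODE M21 (GRCm38), which named 40340 of 41388 genes and left 1048 unnamed. In R 4.3.3, genes passing filterByExpr (minimum count 10, minimum total 15) were fitted with edgeR 4.0.16 (TMM scaling, quasi-likelihood test, two-sided, no covariate), adjusted over all tested genes. CPM used TMM-scaled totals; comparisons between genes used CPM per kilobase of exon. ± is the SD between libraries, and the SE is the log2 fold change over the square root of F. The procedure was tested on simulated data. Libraries of a group differed beyond sampling noise (chi-square per degree of freedom 15.5 to 83.7).

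Members, lists, classes and rules were chosen with earlier results of these data known. Genes named were those past the threshold, the smallest p and the highest level of each substrate class, the 4 on either side of the rule's limit, and a list of transporters known from macrophages; others are marked as chosen after their values were seen. Of that list, Slc7a2, Slc28a2 and Slc22a15 had 36, 4 and 4 counts and were not members. Alternatives were other scalings and filters, DESeq2 1.42.0, limma-voom (limma 3.58.1), an adjusted p under 0.01, a robust fit, a mitochondrial share term, removal of a length trend, a replicate block, and libraries left out. A sex term read from Xist was added after the data were seen. A monocyte marker of the lists is not reported here.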

Additional observations from a re-analysis of the deposited data

How the results depend on the processing

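With 2 control libraries, calls depended most on which libraries were used. Leaving out 1 library at a time gave 0 to 18 higher and 0 to 47 lower Slc genes and a median log2 fold change of -0.22 to -0.0102. Both counts were 0 without either control (18 and 0 genes were then called in the whole table), and 18 and 47 without A20 deletion replicate 1 (3923 in the whole table). Without control replicate 2, 9 higher and 9 lower Slc genes had an unadjusted p under 0.05. Higher calls numbered 5 with DESeq2 and 10 without a filter. Lower calls numbered 10 with DESeq2, 20 without a filter, 6 with a sex term, 4 without A20 deletion replicates 2 and 3, 1 with the 5 CPM filter, 1 with the length trend removed, and 0 with limma-voom, upper-quartile scaling or an adjusted p under 0.01. Over all tested genes, 32.37% were called without A20 deletion replicate 1, 9.07% with DESeq2, 8.22% without a filter and 6.73% with a sex term. The share was 2.59% in the reported fit. Calls thus rose over the whole table in those fits and not only among Slc genes. The median of the Slc genes was -0.03 with upper-quartile scaling, -0.14 with a mitochondrial share term and -0.15 without A20 deletion replicates 2 and 3. Over 19 alternatives Slc2a6 and Slc39a4 were called in 17, Slc6a9 in 12 and Slc25a37 and Slc24a3 in 10 each, and these 5 kept their sign in all of them. The ZIP median lay between -0.62 and -0.33 in the fits run. The cause of these shifts was not tested. The fit with the replicate number as a block gave 2 higher and 0 lower Slc genes. The groups share only 2 numbers, which are not stated to pair the samples. Deviations from the group means correlated at 0.26 and 0.167 for the same numbers. Control replicate 2 and A20 deletion replicate 3, whose numbers differ, correlated at 0.217. With 2 controls, each value has the opposite sign for the other control. Depth limits genes such as Slc6a9, with 7 and 19 control counts.

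Of 54 named Slc genes 34 kept the sign of the log2 fold change in every fit. Of the 20 that changed sign none had passed the test. The values with the opposite sign were as follows. Slc35b2 and Slc46a3 stood at -0.025 and -0.018 with DESeq2's size factors or its test, at -0.032 and -0.026 with library size alone, and at -0.037 and -0.029 without a filter. Slc25a11 stood at 0.018 with the 5 CPM filter and 0.034 with upper-quartile scaling. With the length trend removed, the values were -0.08 for Slc25a1, -0.096 for Slc25a5, -0.11 for Slc35b2, -0.039 for Slc46a1, -0.19 for Slc46a3 and -0.0043 for Slc48a1. With a mitochondrial share term they were -0.72 for Slc14a1, 0.095 for Slc16a3, -0.066 for Slc20a1, 0.10 for Slc29a3, -0.17 for Slc35b2, -0.34 for Slc46a1, -0.068 for Slc46a3, 0.072 for Slc6a6 and 0.0299 for Slc9a3r1. With the replicate block they were 0.0011 for Slc25a11, -0.057 for Slc35b2, -0.068 for Slc46a1 and -0.15 for Slc7a4. With a sex term they were -0.051 for Slc35b2, -0.033 for Slc46a1 and -0.016 for Slc46a3. Without A20 deletion replicates 2 and 3 they were 0.028 for Slc12a2, -1.24 for Slc14a1, 0.15 for Slc16a3, -0.0296 for Slc20a1, 0.14 for Slc29a3, -1.56 for Slc29a4, -0.21 for Slc35b2, -0.42 for Slc46a1, -0.062 for Slc46a3, 0.12 for Slc6a6, -0.42 for Slc7a4 and 0.033 for Slc9a3r1. Leaving out 1 library at a time, the range was -0.68 to 0.25 for Slc18a2, -0.24 to 0.095 for Slc25a11, -0.11 to 0.30 for Slc2a1, -0.21 to 0.14 for Slc35b2, -0.10 to 0.27 for Slc46a1, -0.17 to 0.11 for Slc46a3, -0.007 to 0.22 for Slc48a1, -0.082 to 0.43 for Slc4a1ap, -0.13 to 1.10 for Slc7a4 and -0.26 to 0.0088 for Slc7a5.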
